A study of Mus musculus with 10 samples.

Results

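The genes described here are 10 known targets of the hypoxia response whose products act inside the cell: Mgarp, Ankrd37, Trim66, Ndrg1, Bnip3, Bnip3l, Ddit4, Higd1a, Fam162a and Ppp1r3c. They were picked by symbol, with their response to insulin-like growth factor 1 (IGF1) in these samples already known, so every value of that response below is a description and carries no test. All 10 are among the 18381 genes of the count table, and all 10 passed the filter on low counts together with 14504 genes in total. Mgarp and Trim66 had only 16 and 35 counts in all control teeth and passed that filter through their IGF1 teeth. The samples are mouse first lower molars at embryonic day 14, wild type and of strain C57BL/6JOlaHsd, kept for 6 h in hanging drops. From each of 5 embryos, numbered 1, 2, 3, 4 and 6, one molar received mouse recombinant IGF1 at 750 ng/ml and the other received only the carrier solution, PBS with BSA, here called the control. Left and right sides were balanced between the treatments, and each tooth was a library of its own.

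Cells sense oxygen through the hypoxia-inducible factors (HIF). With oxygen present, prolyl hydroxylases (Egln1, Egln2, Egln3) modify the alpha subunits, Vhl binds them and they are degraded. When oxygen falls, the alpha subunits pair with Arnt and bind hypoxia response elements, short DNA sites with a core of ACGTG or GCGTG. The products of the 10 genes sit mainly on mitochondria (Mgarp, Bnip3, Bnip3l, Higd1a, Fam162a) or in the cytoplasm and nucleus, unlike HIF targets that are secreted or carry nutrients across the cell surface. At embryonic day 14 the molar is at the cap stage, in which an epithelium folds around a condensed mesenchyme.

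The response element core was searched in the promoter windows of RefSeq (build GRCm38.p6), each running from 250 bases before the transcription start to 50 bases after it. The motifs were ACGTG and GCGTG, read on both strands, so that they also appear as CACGT and CACGC; where the letters are CACGTG, which is also the E-box palindrome bound by other factors, both strands match at overlapping bases. Of the 10 genes, 8 had a window and 7 of these 8 held at least 1 match, beside 43.8% of all 32851 windows and 60.2% of the 13694 windows of genes that were tested. At least 3 matches were found in 5 of the 8, beside 8.93% of all windows and 15.1% of those of tested genes. Fam162a had the most with 6, followed by Bnip3 with 5, Ankrd37 and Ppp1r3c with 4 each, Higd1a with 3, Ddit4 with 2 and Mgarp with 1. The RefSeq starts of Ankrd37 and Higd1a lie 5857 and 566 bases from the starts in GENCODE M21. The windows of these genes therefore fall within the gene positions given below. Trim66 had none, which says only that these letters are not in that window. A match is a description of the sequence and not of binding. The letters G and C made up 60.7% to 72.7% of the 7 windows with a match and 47% of that of Trim66. The shares of other windows were not matched for this content, and its part in the counts was not tested.

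The 4 sequences below were chosen to show the range: Bnip3 and Fam162a have the most matches, Ppp1r3c has several and Trim66 has none. The difference of Ppp1r3c between treatments was smaller than its spread between embryos, and that of Trim66 was large. Whether matches go with the response was not tested. Only bases upstream of the annotated gene are shown, 5′ to 3′ on the minus strand of GRCm38.p6 from RefSeq, with the matches in capitals. The stretches are chr7:138909520-138909756 for Bnip3 with 5 matches, chr16:36071595-36071811 for Fam162a with 5 of its 6, chr19:36736654-36736854 for Ppp1r3c with 4, and chr7:109508135-109508384 for Trim66 with 0.
Bnip3: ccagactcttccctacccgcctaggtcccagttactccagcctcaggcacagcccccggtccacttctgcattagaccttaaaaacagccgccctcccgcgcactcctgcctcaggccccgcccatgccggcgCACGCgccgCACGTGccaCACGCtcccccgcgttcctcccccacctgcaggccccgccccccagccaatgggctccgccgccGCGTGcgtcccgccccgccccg
Fam162a: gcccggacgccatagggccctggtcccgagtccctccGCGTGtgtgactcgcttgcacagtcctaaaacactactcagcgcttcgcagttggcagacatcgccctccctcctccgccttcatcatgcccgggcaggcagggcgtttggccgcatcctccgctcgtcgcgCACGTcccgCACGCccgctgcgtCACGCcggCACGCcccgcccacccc
Ppp1r3c: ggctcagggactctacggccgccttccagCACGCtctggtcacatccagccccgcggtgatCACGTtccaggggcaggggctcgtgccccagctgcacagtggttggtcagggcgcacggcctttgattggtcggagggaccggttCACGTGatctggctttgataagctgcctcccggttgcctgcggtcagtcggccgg
Trim66: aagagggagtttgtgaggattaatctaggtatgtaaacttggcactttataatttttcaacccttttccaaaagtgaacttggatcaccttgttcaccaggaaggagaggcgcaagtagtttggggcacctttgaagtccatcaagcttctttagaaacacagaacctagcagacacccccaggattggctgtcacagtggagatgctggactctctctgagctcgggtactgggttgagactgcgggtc

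In the Bnip3 stretch 4 of the 5 matches lie close together, the palindrome counting for 2 of them, and the other match is nearer the start. In Fam162a 4 of the 5 printed matches fall in the last part of the stretch. In Ppp1r3c the palindrome is again present, and the other matches lie farther from the start.

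**Figure D1:**
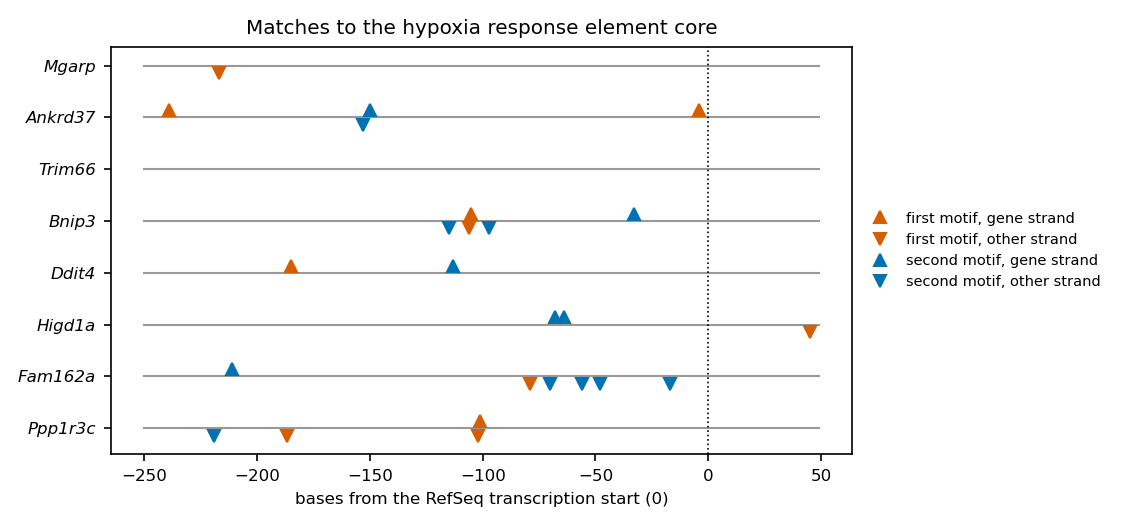
Positions of the core motifs in the promoter windows of 8 genes, in bases from the RefSeq transcription start at 0. Orange marks the first motif (ACGTG) and blue the second (GCGTG), with upward triangles on the gene's strand and downward triangles on the other; 7 of the 8 windows hold a match and Trim66 holds 0.

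The depth of the libraries sets how well the low genes can be read. Control teeth held 2845773 to 8403151 counts each and IGF1 teeth 3456634 to 8763113, and both teeth of embryo 1 had the smallest totals of their treatment. Counts were compared with edgeR's quasi-likelihood test with embryo as a block and Benjamini-Hochberg adjustment, and a gene was called at an adjusted p-value under 0.05. Of the genes tested, 11.5% were called (1666), 6.72% as higher with IGF1 and 4.76% as lower, and the median log2 fold change of all of them was -0.0038. The number called was 887 without the embryo block, 986 without embryo 4 and 994 without embryo 6. Within the group of 10, 8 were called, all higher with IGF1; since this same contrast was used to pick them, nothing is read from that count. The calls leave out Bnip3l and Ppp1r3c. The lists of other genes used below were also chosen with earlier results of these data known. Their counts and adjusted p-values are therefore read as descriptions too. In bulk tissue, fewer cells of a type and less RNA per cell cannot be told apart.

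Values below are CPM, counts scaled to a common library total with edgeR's TMM factors. The log2 ratio of an embryo is that of its IGF1 tooth over its control tooth, with a prior count of 2, and the log2 fold change is that of the fit. The genes follow by the role of their products, beginning with those of the mitochondrion.

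Bnip3 (ENSMUSG00000078566, chr7:138890836-138909519, minus strand) encodes a receptor of the outer mitochondrial membrane that marks mitochondria for removal by autophagy. In the control teeth of embryos 1, 2, 3, 4 and 6 it measured 37.3, 32.8, 14.4, 18.0 and 12.4 CPM. In the IGF1 teeth of the same embryos it measured 54.6, 223, 178, 60.8 and 44.9 CPM. The lowest IGF1 tooth, of embryo 6, was above the highest control tooth, of embryo 1, so the groups did not overlap, and the teeth of embryos 2 and 3 stood far above the other IGF1 teeth. The log2 ratio averaged 2.09 ± 1.15 (SD, n = 5 embryos), with 0.54 in embryo 1 and 3.60 in embryo 3.

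Bnip3l (ENSMUSG00000022051, chr14:66985239-67008877, minus strand), also called Nix, encodes the closest relative of Bnip3 and clears mitochondria from maturing red blood cells. Its control teeth measured 145, 165, 143, 137 and 142 CPM, in the same order of embryos. Its IGF1 teeth measured 147, 257, 267, 132 and 116 CPM. The IGF1 teeth of embryos 2 and 3 were above all control teeth, those of embryos 4 and 6 were below all control teeth, and the groups overlapped. The mean log2 ratio was 0.25 ± 0.50 (SD, n = 5 embryos) with 3 of 5 embryos higher, and the difference between the treatments was smaller than the spread between embryos. Bnip3l was the steadiest of the 10 genes in control teeth, where the SD of its log2 CPM was 0.103.

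Higd1a (ENSMUSG00000038412, chr9:121848563-121858362, minus strand) encodes a small protein of the inner mitochondrial membrane that associates with cytochrome c oxidase. Its control values were 23.3, 19.0, 10.02, 15.3 and 14.1 CPM. Its IGF1 values were 42.5, 148, 90.8, 48.2 and 43.7 CPM. The groups did not overlap, and 3 of the IGF1 teeth lay within a few CPM of each other while those of embryos 2 and 3 were higher. The log2 ratio averaged 2.04 ± 0.97 (SD, n = 5 embryos).

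Fam162a (ENSMUSG00000003955, chr16:36043761-36071594, minus strand) encodes a mitochondrial protein that promotes cell death under hypoxia when in excess. Control teeth gave 50.01, 47.4, 36.9, 41.2 and 39.9 CPM. IGF1 teeth gave 79.3, 238, 163, 95.6 and 80.9 CPM. Every IGF1 tooth was above every control tooth, and the control teeth differed little among themselves. The mean log2 ratio was 1.47 ± 0.72 (SD, n = 5 embryos), running from 0.66 in embryo 1 to 2.32 in embryo 2.

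Mgarp (ENSMUSG00000037161, chr3:51388412-51396738, minus strand) encodes a mitochondrial protein linked to the transport and shape of mitochondria, and it was nearly silent in control teeth. There it measured 0.343, 1.17, 0.471, 0.142 and 0.302 CPM, which are only 16 counts in all. With IGF1 it measured 5.46, 13.5, 11.3, 3.52 and 2.42 CPM, from 274 counts. The groups did not overlap, and the lowest IGF1 tooth was above the highest control tooth. After correction for library totals, the ratio of the summed counts was 15.7. The log2 ratio averaged 3.12 ± 0.62 (SD, n = 5 embryos), the highest mean of the 10 genes, and the prior count pulls it down because the control counts are so few.

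**Figure D2:**
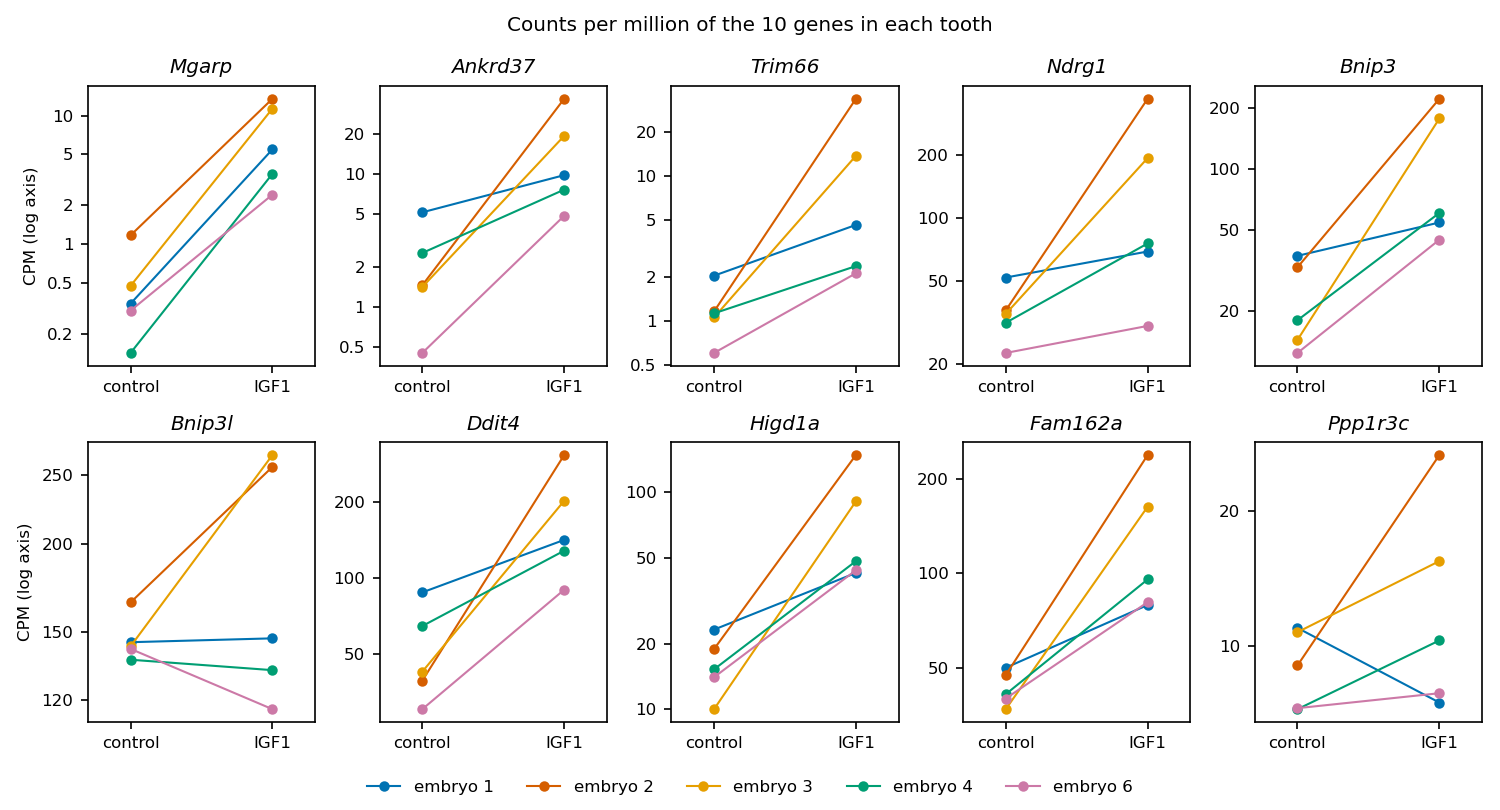
CPM of each of the 10 genes in the control and the IGF1 tooth of every embryo, on a log axis with its own range in each panel; a line joins the teeth of an embryo. In embryos 2 and 3 the lines rise most except for Mgarp, where embryo 4 rises most on control values of few counts, and those of Bnip3l and Ppp1r3c go both up and down.

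Ddit4 (ENSMUSG00000020108, chr10:59949669-59951834, minus strand), also named Redd1, restrains the growth kinase complex mTORC1 under stress. Its control teeth measured 87.7, 39.2, 42.5, 64.5 and 30.2 CPM. Its IGF1 teeth measured 142, 307, 202, 128 and 89.9 CPM. The groups came close, since the IGF1 tooth of embryo 6 was just above the control tooth of embryo 1, but they did not overlap. The log2 ratio averaged 1.69 ± 0.93 (SD, n = 5 embryos).

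Ndrg1 (ENSMUSG00000005125, chr15:66929318-66969640, minus strand) encodes a cytoplasmic protein of differentiation and stress responses. Control teeth gave 51.7, 36.0, 34.7, 31.4 and 22.5 CPM, and IGF1 teeth gave 68.9, 371, 193, 75.3 and 30.3 CPM. Although each embryo was higher with IGF1, the IGF1 tooth of embryo 6 was below 4 of the control teeth, so the groups overlapped. The log2 ratio was 0.41 in embryo 1 and 0.43 in embryo 6 against 3.36 in embryo 2, with a mean of 1.58 ± 1.30 (SD, n = 5 embryos).

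Ppp1r3c (ENSMUSG00000067279, chr19:36731731-36736653, minus strand) encodes a subunit that brings protein phosphatase to glycogen and favours glycogen synthesis. Control teeth measured 11.0, 9.04, 10.7, 7.22 and 7.25 CPM, and IGF1 teeth measured 7.47, 26.7, 15.5, 10.3 and 7.84 CPM. The groups overlapped, and embryo 1 was lower with IGF1 while the other 4 embryos were higher. The mean log2 ratio was 0.42 ± 0.75 (SD, n = 5 embryos), a difference smaller than the spread between embryos. The IGF1 tooth of embryo 2 was the highest and well apart from the rest.

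Ankrd37 (ENSMUSG00000050914, chr8:45996902-46005707, minus strand) encodes an ankyrin repeat protein whose role is little known, and it was a low gene in control teeth. It measured 5.14, 1.46, 1.41, 2.55 and 0.453 CPM there, from 58 counts in all, and 9.76, 36.5, 19.2, 7.61 and 4.84 CPM with IGF1. The groups overlapped only through the control tooth of embryo 1, which was above the IGF1 tooth of embryo 6. The log2 ratio averaged 2.61 ± 1.44 (SD, n = 5 embryos) and was highest in embryo 2, at 4.39.

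Trim66 (ENSMUSG00000031026, chr7:109449006-109508134, minus strand) encodes a nuclear protein of the tripartite motif family that binds chromatin and represses transcription. Its control values were 2.06, 1.17, 1.06, 1.13 and 0.605 CPM, from 35 counts, and its IGF1 values were 4.59, 33.9, 13.7, 2.39 and 2.14 CPM. The groups did not overlap, but the lowest IGF1 teeth exceeded the highest control tooth by little. The log2 ratio averaged 2.26 ± 1.61 (SD, n = 5 embryos), the widest spread of the 10 genes, with 4.54 in embryo 2 and 0.91 in embryo 4.

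The log2 fold changes of the fit were 3.88 for Mgarp, 3.01 for Trim66, 2.90 for Ankrd37, 2.20 for Bnip3, 2.14 for Higd1a, 1.71 for Ddit4, 1.69 for Ndrg1, 1.52 for Fam162a, 0.53 for Ppp1r3c and 0.26 for Bnip3l. Their median was 1.93. Higher in 5 of 5 embryos were 8 of the 10 genes, beside 13.0% of all genes tested, and every IGF1 tooth was above every control tooth in 6 of them, beside 4.21%. Both counts come from the contrast by which the genes were picked. Both also include Mgarp and Trim66, which passed the filter through their IGF1 teeth. Without embryo 2 the log2 fold change of Trim66 was 2.13, which is 4.37-fold in place of 8.06-fold, and that of Ppp1r3c was 0.22. Without embryo 2 the median was 1.64, the lowest over the settings tried, and without embryo 1 it was 2.18, the highest.

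**Figure D3:**
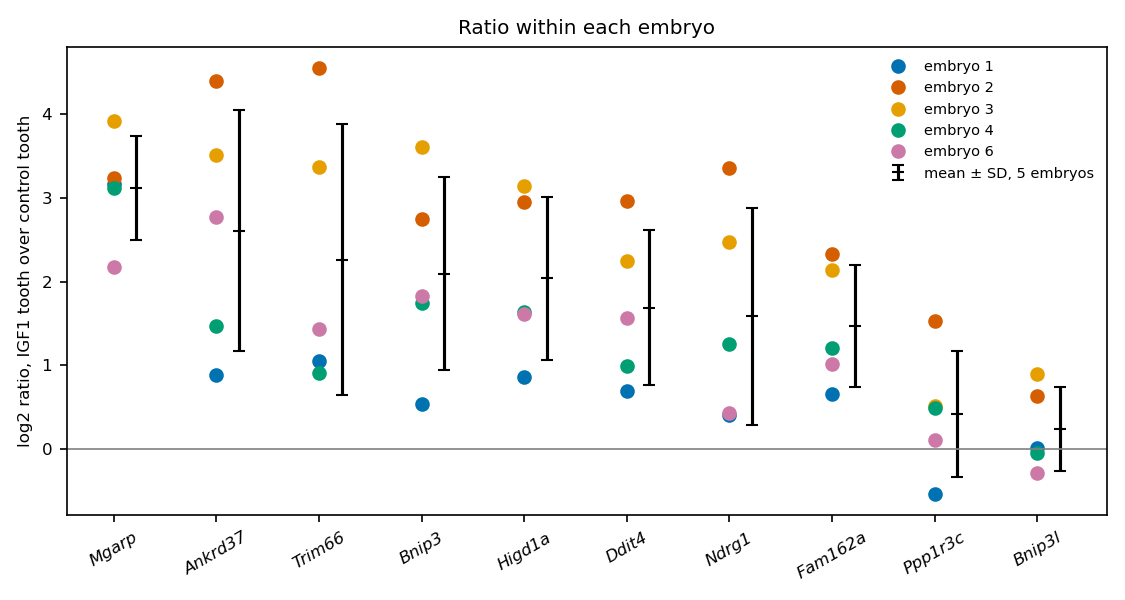
Log2 ratio of the IGF1 tooth over the control tooth in each of 5 embryos, with the mean and SD beside the points; the line at 0 marks equal values. With the prior count of 2 used here embryos 2 and 3 hold the top positions for each gene, though not for Mgarp with a prior count of 0.5, and the genes are ordered by their mean, from 3.12 for Mgarp to 0.25 for Bnip3l.

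The 10 genes varied across embryos in a shared order. Embryos 2 and 3 had the 2 highest log2 ratios in 10 of 10 genes, whereas this order was found in 11.4% of the other genes tested and in 17.8% of the 967 other genes called higher. For Mgarp the order rests on the prior count, since the plain CPM ratios were 15.9, 11.6, 24.0, 24.9 and 8.01 in embryos 1, 2, 3, 4 and 6, so that 9 of 10 genes had it without a prior and with a prior count of 0.5. Other lists shared the order: it was found in 15 of 17 glycolysis genes, 7 of 9 p53 targets, 14 of 20 other intracellular HIF targets and 7 of 12 secreted and surface HIF targets, so it is not particular to the 10. The median log2 ratio of the 10 genes was 0.68 in embryo 1, 2.95 in embryo 2, 2.81 in embryo 3, 1.23 in embryo 4 and 1.50 in embryo 6. In the same embryos it was 0.78, 2.19, 2.04, 0.70 and 0.90 for glycolysis, 0.27, 1.34, 0.82, 0.75 and 0.26 for the other intracellular targets, and 0.33, 2.18, 1.77, 0.69 and 0.62 for the secreted and surface targets. Over all genes tested the median ratio was near 0 in each embryo, from -0.00852 to 0.0160. The IGF1 tooth of embryo 2 was the highest for 9 of the genes and that of embryo 6 the lowest for 7. The control tooth of embryo 1 was the highest control in 8 of the 10, beside 27.8% of the other genes tested, and embryo 1 is the embryo with the smallest libraries. The IGF1 teeth of embryos 2 and 3 held 8675671 and 8763113 counts, against 3456634 to 7080190 in the other IGF1 teeth. Whether depth has a part in the embryo order or in the control values of embryo 1 was not tested.

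IGF1 teeth differed more among themselves than control teeth. The SD of log2 CPM over 5 teeth was larger with IGF1 in 10 of 10 genes, compared with 51.6% of the other genes tested and 58.4% of the other genes called higher, and its median was 0.470 in control and 0.901 in IGF1 teeth. It was also larger with IGF1 in 19 of 20 other intracellular HIF targets, 10 of 12 secreted and surface targets and 13 of 17 glycolysis genes, and in some lists apart from hypoxia, with 9 of 9 genes of the Atf4 list, 7 of 8 endothelial markers and 5 of 6 glucocorticoid targets. Other such lists had lower shares, among them 3 of 8 dental epithelium markers, 8 of 15 mTORC1 regulators, 5 of 9 p53 targets and 0 of 2 glia markers. Among the 10 genes the difference was greatest for Trim66 (0.490 and 1.64) and Ndrg1 (0.426 and 1.40), and small for Ankrd37 (1.05 and 1.12) and Ddit4 (0.607 and 0.674). Summed over the 10 genes, the level was 413, 352, 295, 318 and 269 CPM in the control teeth of embryos 1, 2, 3, 4 and 6, and 561, 1656, 1154, 564 and 423 CPM in the IGF1 teeth.

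To compare levels between genes, CPM was divided by the length of the merged exons in kb. Among control teeth the order of the mean levels per kb was Fam162a (50.7 ± 6.41, SD, n = 5), Bnip3l (37.9 ± 2.82), Ddit4 (30.1 ± 13.2), Bnip3 (10.1 ± 5.00), Higd1a (5.37 ± 1.66), Ndrg1 (5.35 ± 1.61), Ppp1r3c (3.32 ± 0.66), Ankrd37 (1.43 ± 1.17), Mgarp (0.235 ± 0.193) and Trim66 (0.119 ± 0.052). Neighbours in this order overlapped in their ranges, except Fam162a above Bnip3l and Ddit4 above Bnip3. In IGF1 teeth Fam162a again had the highest mean, at 155 ± 81.0 CPM per kb. The means of Ddit4 (99.0 ± 48.3) and Bnip3 (49.5 ± 36.3) were above that of Bnip3l (47.7 ± 18.7). The range of Fam162a (93.2 to 280) overlapped that of Ddit4 (51.2 to 175). Those of Ddit4 and Bnip3 (19.8 to 98.2) both overlapped that of Bnip3l (30.2 to 69.3). Trim66 stayed the lowest at 1.12 ± 1.33 CPM per kb.

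Reads from overlapping genes could affect some of these levels. Genes on the opposite strand overlap 5 of the 10, namely Ankrd37, Ndrg1, Bnip3, Higd1a and Fam162a, and the strand setting of the counting is not given in the sources used here, so that reads of such partners cannot be told apart. Of the 8 partners 3 are in the table. Ufsp2, which overlaps Ankrd37, had a log2 fold change of 0.28 (edgeR adjusted p = 0.0839), and Wdr5b, which overlaps Fam162a, one of -0.23 (adjusted p = 0.422). Lrp2bp, the other partner of Ankrd37, averaged 0.225 CPM in control and 0.485 CPM in IGF1 teeth and was too low to test.

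Genes that share a family name with the 10 genes, here called relatives, were followed too. A shared name, as for Bnip1 and Bnip2, does not by itself mean a shared origin, and origin was not checked. Of 14 relatives tested, 1 was called higher and 1 lower, and their median log2 fold change was -0.05. Ppp1r3b, another glycogen-targeting subunit, was higher by a log2 of 0.31 (SE 0.08, edgeR adjusted p = 0.0364). Trim24 was lower, at -0.23 (SE 0.07, adjusted p = 0.0472). The Ppp1r3b call was lost without embryo 2, 3, 4 or 6 (adjusted p 0.0568 to 0.120) and the Trim24 call without embryo 1, 2, 4 or 6 (adjusted p 0.0912 to 0.149), and neither was called without the block. Without embryo 2 Ndrg2, chosen here after its values were seen, was called lower instead (-0.45, adjusted p = 0.0281), where the fit of all embryos gave -0.31 (adjusted p = 0.130). The other relatives were not called in the fit of all embryos. Their values were -0.31 for Ndrg2, -0.20 for Ndrg3, -0.07 for Ndrg4, -0.19 for Ddit4l and -0.11 for Higd2a. They were 0.12 for Trim28, -0.10 for Trim33, 0.06 for Bnip1 and -0.02 for Bnip2. For Ppp1r3d, Ppp1r3e and Ppp1r3f they were 0.27, 0.34 and 0.18.

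**Figure D4:**
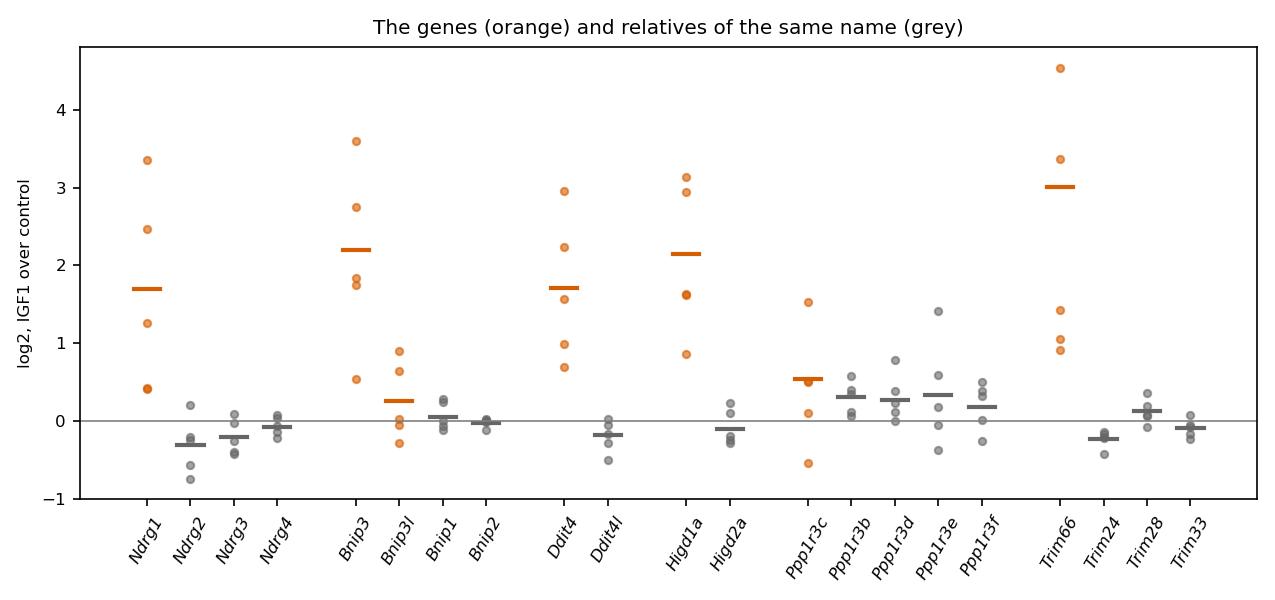
Log2 ratio of IGF1 over control in 5 embryos (points) and the log2 fold change of the fit (bars) for 6 sets of genes that share a name. Genes of the described group are in orange and relatives, whose shared origin was not checked, in grey. The bars of the relatives lie between -0.31 for Ndrg2 and 0.34 for Ppp1r3e.

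Among the genes of oxygen sensing, 2 of 10 were called, both higher with IGF1 and both prolyl hydroxylases that HIF itself induces. Egln3 measured 8.96 to 24.0 CPM in control and 25.4 to 153 CPM in IGF1 teeth, a log2 fold change of 2.10 (SE 0.43, edgeR adjusted p = 0.0103). Egln1 had a log2 fold change of 1.07 (SE 0.19, adjusted p = 0.00537), and its groups did not overlap. The transcripts of the factors were not called. Hif1a was at 0.27 (adjusted p = 0.0890), Arnt2 at 0.23 (adjusted p = 0.195), Epas1 at 0.02 (adjusted p = 0.955), Hif3a at 0.02 (adjusted p = 0.919) and Arnt at -0.01 (adjusted p = 0.937). Vhl at 0.08 (adjusted p = 0.606), Egln2 at -0.04 (adjusted p = 0.833) and the asparagine hydroxylase Hif1an at -0.14 (adjusted p = 0.245) did not pass either. Hif1a was called without embryo 2 (0.35, adjusted p = 0.0372) and by DESeq2's Wald test (0.27, adjusted p = 0.0487).

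Other HIF targets with products inside the cell were called higher in 11 of 20 cases and lower in 0, with a median log2 fold change of 0.66. The largest were Ndufa4l2, a mitochondrial protein of the respiratory chain (2.36, SE 0.54, edgeR adjusted p = 0.0178), Cox4i2, an alternative subunit of cytochrome c oxidase (2.21, adjusted p = 0.000846), P4ha2, a collagen prolyl hydroxylase (2.06, adjusted p = 0.00054), and Ero1l, an oxidase of the endoplasmic reticulum (1.90, adjusted p = 0.0032). Without embryo 2 the count was 7, and Ndufa4l2 was not called (2.07, adjusted p = 0.0675). Secreted and surface targets were called higher in 9 of 12 and lower in 1. Among these were the lactate carrier Slc16a3 (2.95, adjusted p = 0.000126), the peptide ligand Apln (1.82, adjusted p = 0.00203) and the glucose carrier Slc2a1 (1.68, adjusted p = 0.00772). Adm, a vasodilator peptide, was at 1.69 (adjusted p = 0.0429) and lost its call without embryo 2, 3, 4 or 6 (adjusted p 0.0618 to 0.184), without the block (adjusted p = 0.0576) and without the filter (adjusted p = 0.0639), while without embryo 1 it was below the filter and not tested. Angptl4, singled out after its values were seen, was the lower gene at -1.30 (SE 0.14, adjusted p = 0.000319), in 5 of 5 embryos. In glycolysis 16 of 17 genes were higher, led by Aldoc (2.78), Hk2 (1.92), Pfkfb3 (1.83) and Pfkl (1.68), while Pfkm was at 0.14 (adjusted p = 0.316).

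**Figure D5:**
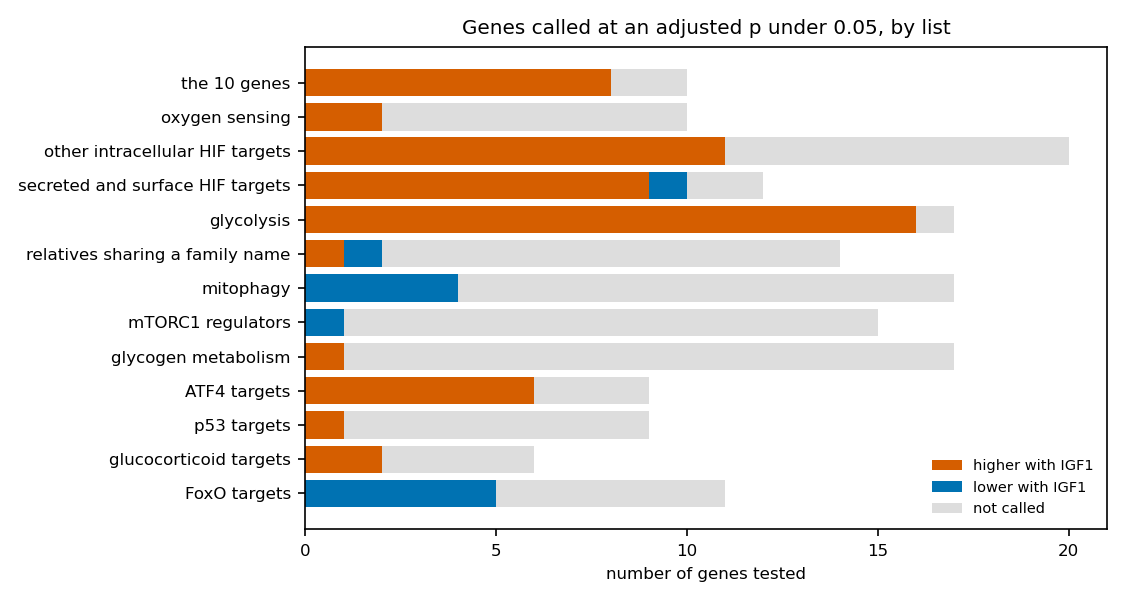
Number of genes called higher (orange), called lower (blue) or not called (grey) at an adjusted p-value under 0.05 among the tested genes of each list. The count of 8 for the 10 genes at the top restates how they were picked. The lists were also chosen with earlier results of these data known. Among them glycolysis shows 16 of 17 higher and the mitophagy list 4 lower and 0 higher.

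The pathways in which the 10 products work were read from lists of their partners. In mitophagy, where Bnip3 and Bnip3l act, 0 of 17 other genes were called higher and 4 lower: Pink1, the kinase that flags damaged mitochondria (-0.89, SE 0.09, edgeR adjusted p = 0.000147), Map1lc3b (-0.50, adjusted p = 0.00113), Gabarapl1 (-0.41, adjusted p = 0.0228) and Ulk1 (-0.28, adjusted p = 0.0328). The Gabarapl1 call was lost without embryo 1, 4 or 6 and the Ulk1 call without embryo 1, 2, 4 or 6, with adjusted p from 0.0659 to 0.131 over both genes. The share of mitochondrial transcripts was taken from summed CPM, and so from library totals scaled with the TMM factors. It was 2.39%, 3.30%, 2.62%, 2.16% and 2.96% in the control teeth of embryos 1, 2, 3, 4 and 6. In the IGF1 teeth it was 2.49%, 2.15%, 2.08%, 2.04% and 2.19%. This share was lower with IGF1 in 4 of 5 embryos. Its part in the levels of the mitochondrial genes was not tested. Among regulators of mTORC1, the complex that Ddit4 restrains, 1 of 15 was called, the inhibitor Deptor at -0.97 (SE 0.19, adjusted p = 0.00786). In glycogen metabolism, the setting of Ppp1r3c, 1 of 17 was called, the muscle-type glycogen synthase Gys1 at 0.98 (SE 0.17, adjusted p = 0.0049).

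Ddit4 and Ndrg1 also answer to other stress and hormone signals, so targets of these were counted. In the list of Atf4, the factor of the amino acid and unfolded protein responses, 6 of 9 genes were higher, Atf4 itself (0.41, adjusted p = 0.0197) and 5 of its 8 tested targets, led by Chac1 (2.58, edgeR adjusted p = 0.000902), Asns (1.71, adjusted p = 0.000279), Phgdh (1.10, adjusted p = 7.28e-05) and Psat1 (1.02, adjusted p = 2.32e-05). The median log2 ratio of this list was 0.88, 1.52, 0.66, 0.68 and 0.55 in embryos 1, 2, 3, 4 and 6. Without embryo 4 the list again had 6 genes called. Sesn2 was gained in that fit (0.89, edgeR adjusted p = 0.0492), so not all calls of the main fit were kept. Atf4 itself was not followed singly in the other fits. Of p53 targets 1 of 9 was higher, Ccng1 (0.60, adjusted p = 0.0244), a call lost without embryo 1, 2, 3 or 6 (adjusted p 0.0510 to 0.0809). Of glucocorticoid targets 2 of 6 were higher, Fkbp5 (0.48, adjusted p = 0.00889) and Per1 (0.48, adjusted p = 0.0277), the latter lost without embryo 2, 3 or 4 (adjusted p 0.0585 to 0.0969). Targets of FoxO, which IGF1 signalling keeps out of the nucleus, were lower in 5 of 11 and higher in 0, among them Txnip (-1.15, adjusted p = 4.02e-05), Pik3ip1 (-0.98, adjusted p = 0.0106), Irs2 (-0.96, adjusted p = 3.18e-05) and Bcl6 (-0.67, adjusted p = 0.0396). The Bcl6 call was lost without embryo 1, 3, 4 or 6 (adjusted p 0.0585 to 0.120).

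Genes whose 5 log2 ratios lay nearest to the median profile of the 10 genes were then sought among genes with a mean of at least 5 CPM, by the root mean square difference over 5 embryos. The 8 nearest were Pfkl (0.221), P4ha2 (0.235), Pgm1 (0.247), Slc2a1 (0.250), Hk2 (0.257), Pfkfb3 (0.279), Ak4 (0.350) and Ciart (0.369). Measured in the same way, Higd1a (0.255) and Ddit4 (0.277) were the closest of the 10 to their own median, whereas Bnip3l (1.69), Mgarp (1.52) and Ppp1r3c (1.50) were the farthest. Pgm1 and Ciart belong to none of the lists. The ratios of Ciart, a repressor of the circadian clock, were 0.70, 2.53, 2.95, 1.52 and 2.13 in embryos 1, 2, 3, 4 and 6.

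Markers of the cell types a molar could hold were read from lists. Of the erythroid markers 6 of 8 tested were lower with IGF1, all globins (median of the list -0.54). Examples were Hbb-y at -0.63 (edgeR adjusted p = 0.000886) and Hba-a1 at -0.56 (adjusted p = 0.00678). The summed level of the list was 864 to 1446 CPM in control and 614 to 1121 CPM in IGF1 teeth. Hba-a2 lost its call without embryo 3, 4 or 6 (adjusted p 0.0787 to 0.134), and without the block 5 of the 6 globins lost theirs (adjusted p 0.0574 to 0.405), all but Hbb-y. These markers stand beside Bnip3l, which red cells express, and their part in its values was not tested. Among markers of dental epithelium 1 of 8 was higher (Krt5, 0.43, adjusted p = 0.0126) and among those of dental mesenchyme 1 of 9 was lower (Vim, -0.42, adjusted p = 0.00949); their summed levels were 1473 to 2200 CPM in control and 1758 to 2313 CPM in IGF1 teeth for epithelium, and 5334 to 6673 and 4908 to 6495 CPM for mesenchyme, so both tissues of the labelled molar were present. Endothelial markers were lower in 1 of 8 (Cdh5, -0.38, adjusted p = 0.0188) and macrophage markers in 1 of 6 (Csf1r, -0.44, adjusted p = 0.0234), and 0 of 2 glia markers and 0 of 1 muscle marker passed the test. The Krt5 call was lost without embryo 6 (adjusted p = 0.0646), that of Cdh5 without embryo 2 or 4 (adjusted p 0.0537 and 0.0545) and that of Csf1r without embryo 3, 4 or 6 (adjusted p up to 0.102) and by DESeq2's Wald test (adjusted p = 0.129). Without the block Krt5, Vim, Cdh5 and Csf1r were not called (adjusted p 0.0706 to 0.303).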

How the data were processed

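RNA of 10 single molars, an IGF1 and a control tooth from each of 5 embryos, was sequenced from Ovation Mouse RNAseq libraries. The authors deposited a table of estimated counts per gene, not normalized. The submitters' processing notes name FastQC 0.11.8, Trimmomatic 0.39, Salmon 0.99.0, DESeq2 and build GRCm38; the strand setting is not given in the sources used here. All values were whole, and each of the 18381 listed genes has at least 10 counts in total. Estimated counts can split reads among similar or overlapping genes. The depth was 2845773 to 8763113 counts per tooth. The paper given with the series does not describe this experiment, and its methods were not used.

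Symbols and positions were taken from GENCODE M21 (GRCm38), which holds 18287 of the identifiers and not the other 94. Counts were tested with edgeR 4.0.16 (R 4.3.3): TMM, filterByExpr, quasi-likelihood test, embryo as block, Benjamini-Hochberg adjustment over 14504 genes. The teeth of a pair came from the same embryo; the correlation of their deviations from the group means was 0.319, 0.208, -0.0389, 0.170 and 0.313 for embryos 1, 2, 3, 4 and 6, while teeth of different embryos had a median of -0.0463. No libraries of a group matched within counting error (chi-square per degree of freedom 4.68 to 19.4). Ratios within embryos used log2 CPM with a prior count of 2.

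The 10 genes and the lists were chosen with earlier results of these data known. Named were the 10 genes, up to 4 called genes with the largest change per pathway list, the tested oxygen sensing genes, called markers and the 8 nearest profiles. Relatives of the genes, overlapping and neighbouring genes and the background of the embryo order were tabulated in the same way, the last 3 after the data had been seen. Alternatives were DESeq2 1.42.0 (size factors and Wald test), limma-voom 3.58.1, other filters, no block, each embryo left out, a prior count of 0.5 and plain library totals; ratios without a prior were added after the data had been seen. On counts simulated with a preset dispersion for 14401 genes of this comparison, the test recovered 95% of 200 genes changed by a log2 of 1, and 5.47% of its calls were unchanged genes. The simulation gave each gene the same dispersion and each embryo the same change. In the data the log2 ratios of the 10 genes had SDs of 0.50 to 1.61 over embryos. The recovery therefore does not hold for genes that vary so. Promoter sequences were those of RefSeq (GRCm38.p6).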

Additional observations from a re-analysis of the deposited data

Results flagged for a closer look

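Single teeth stood apart from the other 4 of their group by Dixon's ratio of gap to range, for which the 95% critical value with 5 samples is 0.71. Among the 10 genes this held for 1 of 20 groups, where chance alone gives about 1. The control tooth of embryo 2 measured 165 CPM for Bnip3l (ratio 0.714), beside 136.8 to 144.9 CPM in the other control teeth.

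Among all 128 groups looked at, 4 were found, where chance gives about 6.4. For Adm the control tooth of embryo 1 measured 2.398 CPM (ratio 0.876), beside 0.825 to 1.021 CPM in the others. For Egln3 the control tooth of embryo 1 measured 23.98 CPM (ratio 0.842), beside 8.958 to 11.34 CPM. For Chac1 the IGF1 tooth of embryo 2 measured 16.25 CPM (ratio 0.782), beside 1.71 to 4.882 CPM.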

How the results depend on the processing

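For the 10 genes, all 110 log2 fold changes under the alternatives kept their direction and 8 genes were called in each; the fold moved by over 1.5 times for Trim66 without embryo 2 (log2 2.13), and the median ran from 1.64 to 2.18 over the fits that left out an embryo. Without the replicate block that pairs the teeth of an embryo, the number of genes called was 887 in place of 1666. In that unpaired fit the called genes numbered 7 among other intracellular HIF targets, 0 among relatives, 2 in mitophagy, 2 among mTORC1 regulators, 0 among p53 targets and 1 among glucocorticoid targets. DESeq2's Wald test called 3 oxygen sensing genes, 1 relative, 2 mitophagy genes, 2 mTORC1 regulators and 1 glucocorticoid target, and limma-voom 2 mTORC1 regulators. Leaving out each embryo gave 986 to 1602 genes called, 7 to 11 other intracellular HIF targets, 0 to 1 relatives, 2 to 4 mitophagy genes, 1 to 2 mTORC1 regulators, 1 to 2 glycogen genes, 0 to 2 p53 targets and 1 to 2 glucocorticoid targets. Over the same fits, log2 fold changes near 0 changed sign for Arnt (-0.0420 to 0.0233), Egln2 (-0.0938 to 0.0172), Hif3a (-0.0896 to 0.0543) and Epas1 (-0.0344 to 0.176), none of them called. Of 592 values for 54 other named genes, 65 lost their call and 2 gained it. The cause was not tested. Genes with few counts in control teeth, such as Mgarp with 16 in all, are limited by depth, most of all in embryo 1.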

Other observations

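Protein coding neighbours within 500 kb of the 10 genes were counted after the data had been seen. Of 69 neighbours tested, 6 were called higher with IGF1 and 3 lower, which is 13%, beside 11.5% of all genes tested. Their median log2 fold change was 0.03. Trim66, Ndrg1 and Ppp1r3c had 0 neighbours called.

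Ppp1r3g, a relative of Ppp1r3c that was singled out after its values were seen, was too low to be tested. It measured 0 to 0.566 CPM in control teeth and 0.855 to 6.05 CPM in IGF1 teeth, higher with IGF1 in 5 of 5 embryos.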
